A study of Homo sapiens with 18 samples.

Results

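The 35 genes described here encode the integrin subunits and the leukocyte adhesion molecules: 18 integrin alpha subunits, 8 integrin beta subunits, 5 intercellular adhesion molecules (ICAM1 to ICAM5), VCAM1, PECAM1, SELPLG and CD44. They were chosen by gene symbol, in a list drawn up with earlier results of these data known, and each matched 1 row among the 57500 genes counted. The RNA came from THP-1, a human cell line of monocytic leukaemia origin that grows in suspension, in 3 derived lines made with lentiviral short hairpin constructs and kept under puromycin: shNT, which carries a non-targeting hairpin, shNR4A2 and shNR4A3, whose hairpins target the orphan nuclear receptors NR4A2 and NR4A3. Each line was left untreated (control) or given lipopolysaccharide (LPS), a bacterial cell wall component sensed by TLR4, at 2.5 µg/ml for 2 h after a 2 h preincubation in buffered medium. The 6 groups hold 3 libraries each, 18 in all, numbered as replicates 1 to 3. Only 1 line was used for each hairpin, so the loss of the target and any other difference between the lines cannot be told apart. Whether a line is a clone or a pool is not given in the sources used here.

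Library totals ran from 16171161 to 23929138 counts, with a median of 19639071. Levels are given in TPM, transcript shares that correct for gene length, sum to 1000000 in each library and can be compared between genes. Differences between groups are log2 fold changes from edgeR's quasi-likelihood test on the counts, with their standard error (SE), and a gene is called where its p-value, adjusted by the Benjamini-Hochberg method over all genes tested, is under 0.05. In bulk RNA, fewer cells that express a gene and less RNA per cell cannot be told apart. On the TPM scale the median gene fell with LPS by 0.23, 0.28 and 0.24 (log2) in the shNT, shNR4A2 and shNR4A3 lines, whereas on the scale of the test it was at -0.01, -0.02 and -0.01. Folds of TPM with LPS are therefore lower than the fitted folds, and no called member had the opposite direction in TPM.

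The labels were checked against the hairpin targets and the cell type. NR4A2 was at 4.16, 2.83 and 4.08 TPM in shNT control cells and at 62.2, 74.7 and 51.3 TPM with LPS. In the shNR4A2 line it was at 1.82, 1.63 and 2.41 TPM without LPS and at 20.5, 28.3 and 14.8 TPM with LPS, a log2 difference from shNT of -0.91 (adjusted p = 0.0359) and -1.52 (adjusted p = 0.00265). The call without LPS was lost in 4 of 6 fits with a library left out, those without control replicate 1 or 2 of shNR4A2 or control replicate 1 or 3 of shNT (adjusted p up to 0.124), with differences of -1.07 to -0.81 over the 6. NR4A3 was at 0.556, 0.693 and 0.512 TPM in shNT control cells and at 30.9, 32.3 and 32.0 TPM with LPS. Its values in the shNR4A3 line were 0.158, 0.108 and 0.0315 TPM without LPS and 17.0, 18.2 and 16.7 TPM with LPS, lower than shNT by -2.47 (adjusted p = 0.00767) and -0.82 (adjusted p = 0.000556). Each hairpin line had its target at lower levels in every library than shNT at the same treatment, and both targets rose with LPS in the lines that silence them. All 5 early LPS genes examined (TNF, IL1B, CXCL8, CCL3, NFKBIA) were called higher with LPS in each line. All 10 genes listed as markers of THP-1 monocytic cells, among them the granule genes MPO and ELANE, reached 1 TPM in a group. Their summed level of 4507 to 6805 TPM was mostly ELANE (2630 to 4948 TPM), so the sum describes mainly that gene. Markers of T cells, B cells, platelets, endothelial cells, epithelial cells and fibroblasts summed to at most 13.6 TPM in any library, and 1 of 5, 3 of 4, 2 of 5, 1 of 5, 1 of 5 and 0 of 5 of them reached 1 TPM in a group, while 0 were at 0 in every library. The platelet list, led by GP9, averaged 10.6 TPM in shNT control, 7.61 TPM in shNR4A2 control and 6.25 TPM in shNR4A3 control cells, and the T cell list, led by TRAC, averaged 4.95, 6.10 and 2.83 TPM. The part of these low levels in the results was not tested.

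Integrins are heterodimers of 1 alpha and 1 beta subunit that sit in the plasma membrane, bind extracellular matrix or counter-receptors on other cells, and change shape when signals inside the cell activate them. On leukocytes the beta2 integrins (ITGB2 with ITGAL, ITGAM, ITGAX or ITGAD) bind ICAM proteins, and the alpha4 integrins (ITGA4 with ITGB1 or ITGB7) bind VCAM1. P-selectin glycoprotein ligand 1 (SELPLG) and CD44 carry out the rolling contacts that come before firm adhesion, and PECAM1 takes part in passage between endothelial cells. Monocytes use this set to leave the blood, and they also display ICAM1 themselves when stimulated.

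Of the members with a call for LPS in each line, VCAM1, ICAM1 and ICAM5 had the largest responses, and the bases before their start sites are shown because NF-kappaB, the factor that LPS activates, is known to act at the promoters of VCAM1 and ICAM1. The sequences are RefSeq's (GRCh38.p14), in which 23 of the 35 members had an entry, written 5′ to 3′ on the gene's strand. Capitals mark an NF-kappaB consensus match 62 to 53 bases before the start of VCAM1 (chr1:100719492-100719741, plus strand) and the letters GGAAATTCC 186 to 178 bases before that of ICAM1 (chr19:10270924-10270953, plus strand, 30 bases). The 250 bases before the start of ICAM5 (chr19:10289702-10289951, plus strand) held neither and are given in lower case. These starts are RefSeq's. In the annotation of the counts ICAM1 starts earlier, at chr19:10270835, so its marked letters lie within the gene as counted.
VCAM1: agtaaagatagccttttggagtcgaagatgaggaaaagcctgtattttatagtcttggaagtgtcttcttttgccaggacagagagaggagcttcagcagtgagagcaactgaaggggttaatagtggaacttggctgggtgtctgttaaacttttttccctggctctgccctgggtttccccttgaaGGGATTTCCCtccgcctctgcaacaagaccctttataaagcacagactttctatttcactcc
ICAM1: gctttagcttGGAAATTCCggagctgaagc
ICAM5: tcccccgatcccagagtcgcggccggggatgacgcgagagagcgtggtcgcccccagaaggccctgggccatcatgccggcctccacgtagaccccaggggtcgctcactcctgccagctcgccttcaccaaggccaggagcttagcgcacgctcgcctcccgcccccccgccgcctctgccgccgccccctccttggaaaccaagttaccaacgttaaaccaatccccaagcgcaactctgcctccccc
On either strand, the NF-kappaB consensus was in 5.21% of the 35116 RefSeq promoters and in those of 5 members (VCAM1, ITGA1, ITGA5, ITGA10, ITGA11). GGAAATTCC was in 0.413% and, of the members, in ICAM1. The NR4A response element AAAGGTCA was in 1.05% of all promoters and the AP-1 motif TGANTCA in 6.57%, and neither was in a member's window. These letters are a description of the windows, and a motif can lie outside them.

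Of the 35 members, 24 reached a mean of 1 TPM in at least 1 group, 16 reached 10 TPM and 6 reached 100 TPM. The 24 were 12 of 18 alpha subunits, 5 of 8 beta subunits (ITGB1, ITGB2, ITGB4, ITGB5, ITGB7), 4 of 5 ICAM genes, PECAM1, SELPLG and CD44. The 6 most abundant were ITGB2, ICAM1, PECAM1, ITGA5, ITGB1 and CD44. ICAM1 and CD44 reached 100 TPM only with LPS, CD44 only in the knockdown lines. The summed level of the 35 members was 1289 ± 88.3 TPM (SD, n = 3) in shNT control, 1719 ± 81.2 TPM in shNR4A2 control and 1675 ± 67.2 TPM in shNR4A3 control cells, and with LPS it was 1378 ± 119 TPM, 1967 ± 79.6 TPM and 2070 ± 89.1 TPM. The 11 members that stayed under 1 TPM were ITGA1, ITGA2, ITGA3, ITGA8, ITGA10, ITGAD, ITGB3, ITGB6, ITGB8, ICAM4 and VCAM1, with ITGA3 the highest at 0.919 TPM. At the lower end of the 24, ITGA2B, the platelet chain, had means of 1.63 to 2.31 TPM over the 6 groups, ITGB4, a laminin receptor chain of epithelia, 0.886 to 1.38 TPM, and ITGA11, a collagen receptor chain, 0.716 to 1.11 TPM, and none of these was called in any comparison. ICAM4, an erythroid adhesion molecule, had 0 counts in every library, but AC011511.5 overlaps 100% of its exonic bases on the opposite strand. AC068234.1, listed at 0 counts, overlaps 51.6% of those of ITGB3 on the same strand, and PRR29 26.8% of those of ICAM2 on the opposite strand. The strand setting of the counting and its treatment of shared reads are not given in the sources used here, so reads of these members may have been lost and the low levels of ICAM4 and ITGB3 set no upper limit.

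**Figure D1:**
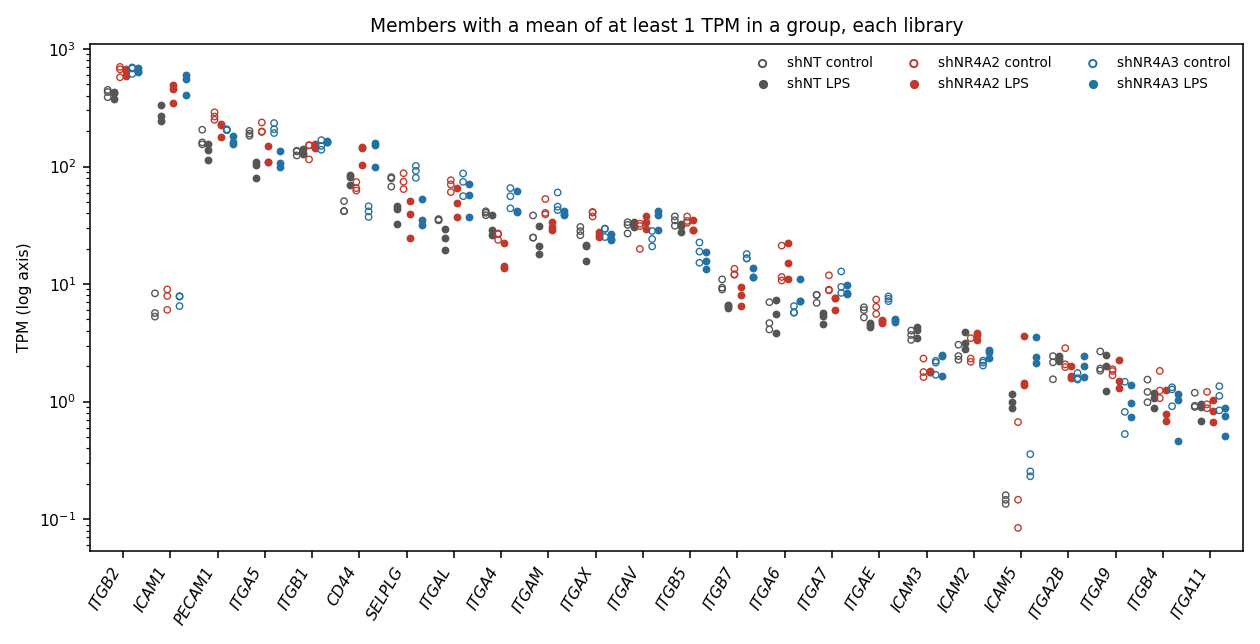
TPM (log axis) of the 24 members that reached a mean of 1 TPM in a group, with 1 point for each library, open for control and filled for LPS, coloured by line. The mean of ITGB2 is between 409 and 665 TPM over the 6 groups, and that of ICAM1 moves from 6.43 to 282 TPM in shNT cells with LPS.

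Among the beta subunits, ITGB2 had the most RNA. This did not extend to the alpha chains. In shNT control cells those that pair with ITGB1 summed to 280 TPM and those that pair with ITGB2 to 93.0 TPM. ITGB2 made up 70.4% ± 1.40 (SD, n = 3) of the summed beta subunit TPM in shNT control cells, 77.4% ± 3.37 in shNR4A2 control and 77.8% ± 2.63 in shNR4A3 control cells, and with LPS 70.4% ± 1.18, 77.0% ± 1.59 and 77.5% ± 0.940. Its TPM was 4.56 ± 0.265 times the summed TPM of its 4 alpha partners in shNT control cells. Among these partners ITGAL (the LFA-1 alpha chain), ITGAM (the Mac-1 alpha chain) and ITGAX (CD11c) had similar shares in shNT control cells, 38.2% ± 3.99, 31.3% ± 4.93 and 30.5% ± 1.15, while ITGAD did not exceed 0.672 TPM in any library. In the shNR4A3 line the ITGAX share was 18.7% ± 1.52 without LPS and 20.9% ± 1.79 with LPS, and in the shNR4A2 line it was 26.0% ± 1.46 and 24.5% ± 1.94. The shares of ITGAX were in the order shNT, shNR4A2, shNR4A3 at both treatments, without overlap between libraries except for the knockdown lines with LPS.

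Among the alpha chains that pair with ITGB1, the fibronectin receptor subunit ITGA5 was the most abundant, with 68.3% ± 1.76 (SD, n = 3) of their summed TPM in shNT control cells. With LPS its share was 55.2% ± 1.67 in shNT, 60.8% ± 3.98 in shNR4A2 and 51.8% ± 2.94 in shNR4A3 cells, below every control library of the same line. ITGA4, the VLA-4 alpha chain, had 14.4% ± 0.947 of these alpha chains in shNT control cells, 8.78% ± 0.942 in shNR4A2 control and 17.6% ± 1.48 in shNR4A3 control cells. The ratio of ITGA4 to the laminin receptor subunit ITGA6 was 8.09 ± 2.29 in shNT control cells, 1.94 ± 0.614 in shNR4A2 control cells and 9.33 ± 2.35 in shNR4A3 control cells, and 1.12 ± 0.434 in shNR4A2 cells with LPS. The shNR4A2 libraries therefore held the 6 lowest ratios of the series.

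**Figure D2:**
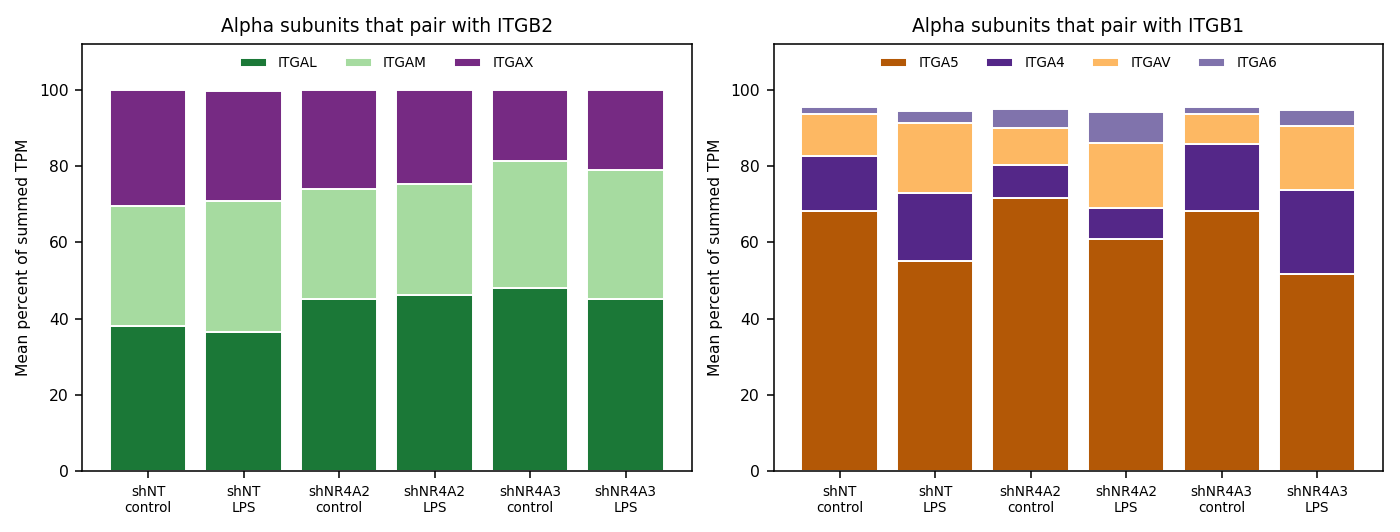
Stacked bars of the mean share (percent of summed TPM, n = 3 libraries) of the main alpha subunits that pair with ITGB2 (left) and ITGB1 (right), by group. The ITGA4 share is 8.78% and 8.24% in the shNR4A2 groups and between 14.4% and 21.9% in the other 4 groups.

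With LPS, 8 of the 28 members that passed the filter on low counts were called in shNT cells (6 higher, 2 lower), 7 of 30 in shNR4A2 cells (5 and 2) and 11 of 28 in shNR4A3 cells (8 and 3). Of all genes tested, 24.9% were called in shNT (11.6% higher, 13.3% lower), 19.3% in shNR4A2 (9.23% higher, 10.1% lower) and 28.1% in shNR4A3 (13.1% higher, 15% lower). These counts include VCAM1 and ICAM5 and, in the knockdown lines, ITGB8, which passed the filter only in comparisons that hold LPS libraries, so nothing is read from the members' count against these shares. Their median log2 fold change was 0.00, -0.04 and 0.13, against -0.01, -0.02 and -0.01 for all genes tested. With the replicate number as a block, 13 members were called in the shNR4A2 line, where ITGA6, ITGAV, ITGAX, ITGB1, ITGB7 and ICAM2 were added (adjusted p from 0.00154 to 0.0376). The share of 19.3% is from the fit without the block and is not set against this count. The counter-receptor ICAM1 and the hyaluronan receptor CD44 were called higher in each line, and ITGA5 and SELPLG were called lower in each line. VCAM1 and ICAM5 are given by their values, with their calls as a description.

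ICAM1, the ligand of the beta2 integrins, was at 8.34, 5.67 and 5.29 TPM in shNT control cells and at 334, 244 and 268 TPM with LPS. In the shNR4A2 line it was at 9.01, 7.92 and 6.04 TPM and, with LPS, at 489.7, 347 and 460.4 TPM, and in the shNR4A3 line at 7.91, 7.81 and 6.50 TPM and, with LPS, at 597, 403 and 561 TPM. Every LPS library was far above every control library, and replicate 2 was the lowest LPS library of each line. The LPS libraries of both knockdown lines were all above the shNT LPS libraries. The log2 fold changes were 5.67 ± 0.18 (SE, adjusted p = 2.09e-11), 6.10 ± 0.23 (adjusted p = 1.70e-09) and 6.37 ± 0.20 (adjusted p = 3.06e-09), folds of mean TPM of 43.8, 56.5 and 70.2. AC011511.5 and AC011511.2 overlap 23.6% of the exonic bases of ICAM1 on the opposite strand, and they had at most 64 counts over a group.

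VCAM1, the counter-receptor of ITGA4, is best known from endothelium and was close to absent without LPS. Its counts were 0, 0 and 1 in shNT control cells and 0 in all 6 control libraries of the knockdown lines, and with LPS they were 20, 19 and 52 in shNT, 11, 15 and 29 in shNR4A2 and 11, 12 and 48 in shNR4A3 cells. Each LPS library had more counts than any control library, and replicate 3 was the highest in each line. The mean level with LPS was 0.842, 0.549 and 0.702 TPM, which is at least 19.7-fold higher in shNR4A2 and at least 20.5-fold higher in shNR4A3 cells than 3 counts over the control group. VCAM1, like ICAM5 and ITGB8, was tested with LPS only because it was high in LPS libraries, so its calls are a description (adjusted p = 7.58e-05, 0.000318 and 0.00203), and its fitted log2 fold change in shNT was 6.11, with 5.51 without shNT LPS replicate 3 and 7.93 without shNT control replicate 3. In shNR4A3 the fitted value was 7.58, and 6.66 without shNR4A3 LPS replicate 3.

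ICAM5, an ICAM known mainly from neurons, was at 0.135, 0.1599 and 0.146 TPM in shNT control cells and at 1.16, 0.876 and 0.988 TPM with LPS. It was at 0.670, 0.146 and 0.0842 TPM in shNR4A2 control cells and at 1.45, 1.38 and 3.59 TPM with LPS. In the shNR4A3 line it was at 0.357, 0.232 and 0.255 TPM and, with LPS, at 2.13, 2.40 and 3.52 TPM. The groups did not overlap in any line, although shNR4A2 control replicate 1 lay apart from the other 2. The log2 fold changes were 2.96 ± 0.42, 3.04 ± 0.60 and 3.45 ± 0.36 (SE, adjusted p = 0.000152, 0.00323 and 4.27e-05), and that in shNR4A2 was 2.43 without shNR4A2 LPS replicate 3 and 4.45 without shNR4A2 control replicate 1. ICAM2, which is constitutive on leukocytes and endothelium, was not called in any line without the block, with 2.59, 2.66 and 2.14 TPM without LPS and 3.29, 3.62 and 2.56 TPM with LPS in the shNT, shNR4A2 and shNR4A3 lines. With the block it was called higher in shNR4A2 (0.73, adjusted p = 0.0348).

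CD44, the receptor for hyaluronan, was at 50.8, 41.8 and 41.7 TPM in shNT control cells and at 84.7, 70.3 and 81.1 TPM with LPS. It went from 73.8, 62.4 and 65.6 TPM to 144, 104 and 146 TPM in the shNR4A2 line, and from 37.2, 41.6 and 46.0 TPM to 159, 99.1 and 151 TPM in the shNR4A3 line. Control and LPS libraries did not overlap in any line, and replicate 2 was again the lowest LPS library of each. Log2 fold changes were 1.03 ± 0.11 (SE, adjusted p = 9.66e-06), 1.24 ± 0.17 (adjusted p = 0.00017) and 1.96 ± 0.18 (adjusted p = 1.62e-05).

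SELPLG, the ligand of P-selectin, was at 81.3, 79.3 and 67.4 TPM in shNT control cells and at 46.2, 43.4 and 32.4 TPM with LPS. It was at 74.3, 87.8 and 64.3 TPM without and 39.7, 50.6 and 24.8 TPM with LPS in shNR4A2 cells, and at 92.0, 101 and 80.2 TPM without and 34.8, 53.2 and 32.0 TPM with LPS in shNR4A3 cells. In each line all 3 LPS libraries were below all 3 control libraries. The log2 fold changes were -0.69 ± 0.13, -0.72 ± 0.21 and -0.97 ± 0.15 (SE, adjusted p = 0.00151, 0.0277 and 0.000735), and the call in shNR4A2 was lost without shNR4A2 LPS replicate 3 (adjusted p = 0.0743) and without shNR4A2 control replicate 2 (adjusted p = 0.127).

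ITGA5 fell with LPS from 201, 190.6 and 183 TPM to 104, 109 and 79.3 TPM in shNT cells. It fell from 197, 237 and 199 TPM to 109, 150.2 and 109 TPM in shNR4A2 cells and from 193, 235 and 208 TPM to 99.1, 136 and 107 TPM in shNR4A3 cells. No LPS library reached a control library in any line, and replicate 2 was the highest LPS library of each. The log2 fold changes were -0.76 ± 0.10, -0.53 ± 0.13 and -0.67 ± 0.10 (SE, adjusted p = 8.75e-05, 0.0148 and 0.000478), and the shNR4A2 call was lost without shNR4A2 LPS replicate 1 (adjusted p = 0.0695), LPS replicate 3 (adjusted p = 0.0719) or control replicate 2 (adjusted p = 0.0549).

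Further alpha and beta chains were called in 1 or 2 of the lines. ITGAV, the alpha chain of vitronectin receptors, had log2 fold changes of 0.27 (adjusted p = 0.0456) in shNT, 0.54 (adjusted p = 0.0553; 0.00154 with the replicate block) in shNR4A2 and 0.81 (adjusted p = 0.00333) in shNR4A3 cells. Its TPM values overlapped between treatments in shNT (means of 30.8 TPM without and 31.9 TPM with LPS) and shNR4A2, and not in shNR4A3. ITGB1, the shared beta chain of matrix receptors, had 0.24 (adjusted p = 0.0326), 0.37 (adjusted p = 0.0542; 0.0116 with the block) and 0.32 (adjusted p = 0.0233), and its TPM values overlapped between treatments in each line. ITGB8, which pairs with ITGAV and was under 1 TPM throughout, was at 0.0711, 0.0629 and 0.0868 TPM without LPS and 0.693, 0.134 and 0.835 TPM with LPS in shNR4A2 cells, and at 0.0395, 0.0299 and 0.0394 TPM without and 0.902, 0.338 and 0.840 TPM with LPS in shNR4A3 cells. Groups did not overlap, replicate 2 was the lowest LPS library of both lines, and the fitted log2 fold changes were 3.18 ± 0.61 (SE, adjusted p = 0.00269) and 4.44 ± 0.53 (adjusted p = 0.000107). ITGB8 did not pass the filter in shNT cells, where it had 6 counts over the control and 50 over the LPS libraries and was at 0.0579, 0.0137 and 0 TPM without and 0.264, 0.0951 and 0.202 TPM with LPS. In shNR4A3 cells ITGA6 was called higher (0.74 ± 0.20, adjusted p = 0.0162; 0.0859 with all 18 libraries in 1 fit) and ITGAE, the alpha chain that pairs with ITGB7 on mucosal lymphocytes, lower (-0.39 ± 0.13, adjusted p = 0.0413; 0.1117 with DESeq2).

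Several of these smaller calls were lost when a library was left out, with log2 fold changes that kept their sign. The ITGAV call in shNT was lost in 5 of 6 fits that left out 1 library (all but that without shNT LPS replicate 2), with adjusted p up to 0.150 and values of 0.21 to 0.32 over the 6 fits. The ITGB1 call in shNT was lost in all 6, with adjusted p from 0.0505 to 0.0903 and values of 0.22 to 0.27. In shNR4A3, the ITGAE call was lost in all 6 (adjusted p from 0.063 to 0.138, values of -0.44 to -0.34). ITGB1 lost its shNR4A3 call without LPS replicate 1 or 3 or control replicate 1 or 2 (adjusted p up to 0.0889, values of 0.28 to 0.40), and ITGA6 without LPS replicate 1 or control replicate 2 or 3 (adjusted p up to 0.0614, values of 0.47 to 0.89). ITGB2 and its partners ITGAL, ITGAM and ITGAX were not called with LPS in any line without the block. With the block ITGAX was called lower in shNR4A2 (-0.33, adjusted p = 0.0196). In shNT, where the numbers were not taken to pair the libraries, the block called ITGAX and ITGAL lower (adjusted p = 0.00444 and 0.0108). ITGB2 had log2 fold changes of 0.17, 0.24 and 0.22, with adjusted p of 0.206, 0.218 and 0.11, and with the block it was called in shNR4A3 (adjusted p = 0.0148).

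**Figure D3:**
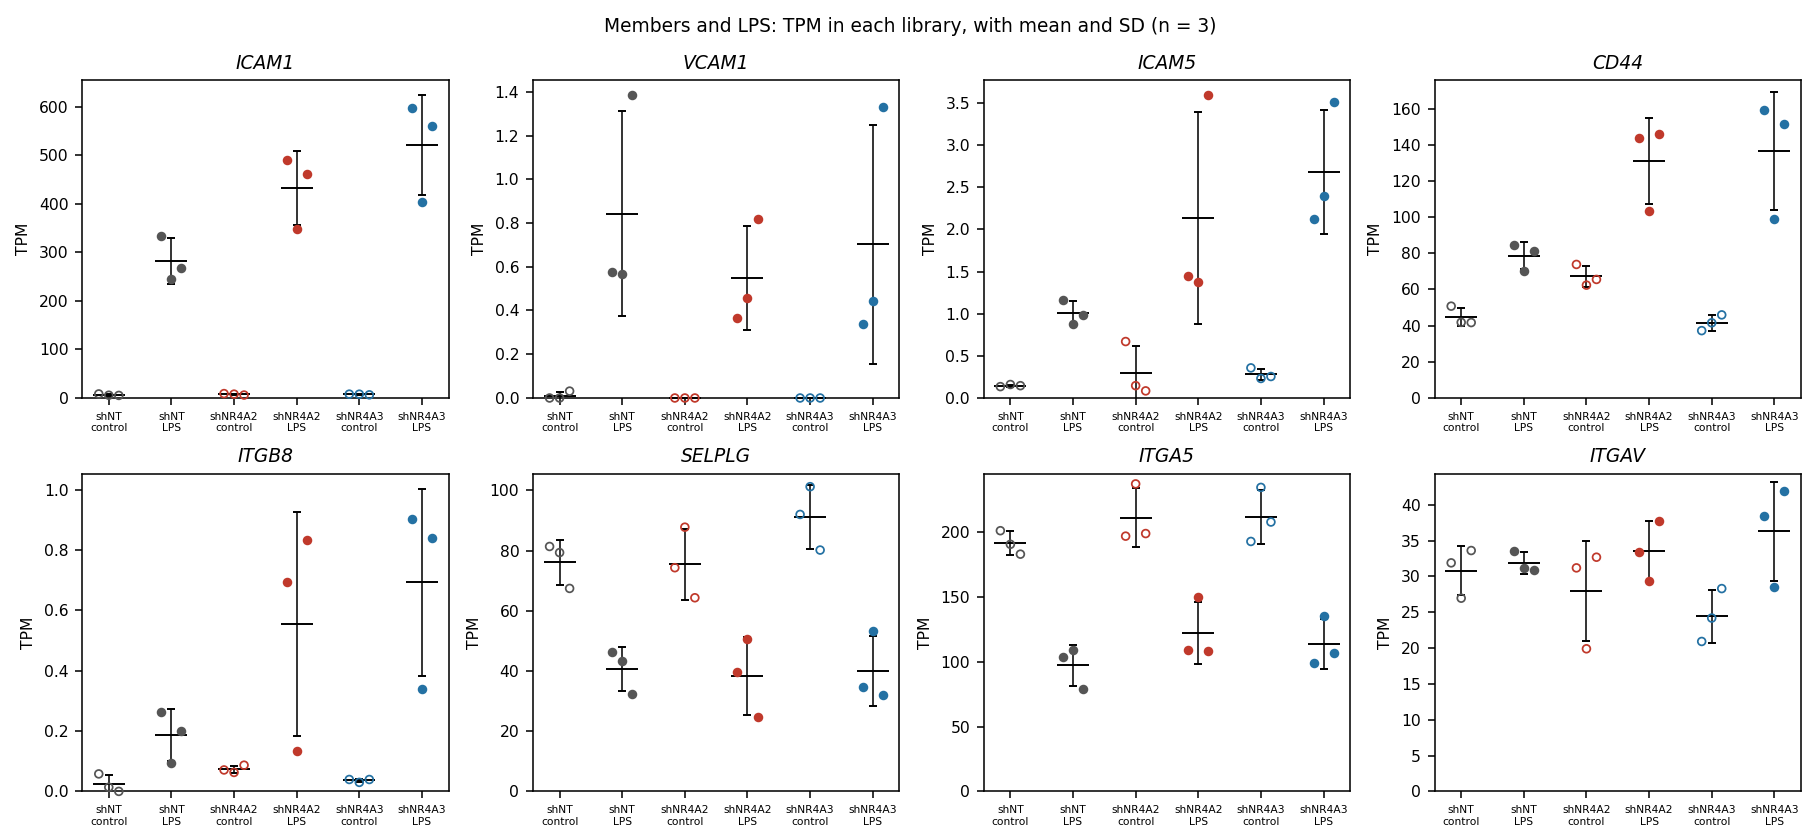
TPM (linear axis from 0) of 8 members by group, with 1 point for each library, open for control and filled for LPS, and black bars for the mean and SD (n = 3). ICAM1 lies between 5.29 and 9.01 TPM in control libraries and between 244 and 597 TPM in LPS libraries, and SELPLG and ITGA5 lie lower with LPS in each line.

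The lines were then compared at the same treatment, at rest and under LPS, which sets line against line and does not single out the silencing. Without LPS, 8 of the 26 members that passed the filter were called between shNR4A2 and shNT (6 higher, 2 lower in shNR4A2) and 7 of 26 between shNR4A3 and shNT (5 higher, 2 lower), where 6.45% (3.63% higher, 2.82% lower) and 7.23% (3.91% higher, 3.32% lower) of all genes tested were called. With LPS, 9 of 31 members were called in the shNR4A2 line (7 higher, 2 lower) and 12 of 28 in the shNR4A3 line (11 higher, 1 lower), where 6.96% (4.31% higher, 2.65% lower) and 6.45% (3.99% higher, 2.46% lower) of all genes were called. The members' median log2 differences were 0.21 and 0.36 for shNR4A2 without and with LPS, and 0.19 and 0.31 for shNR4A3, against values within 0.01 of 0 for all genes tested. The counts with LPS include ITGA1 for shNR4A2 and ITGB8 for shNR4A3, which passed the filter only in comparisons that hold the groups where they were high. Both knockdown lines were set against the same shNT libraries, so the values of the 2 comparisons are given side by side and are not independent. With the replicate block the counts were 11 and 17 for shNR4A2 without and with LPS, and 14 and 18 for shNR4A3. The shares of all genes given here are from the fit without the block, so nothing is read from these block counts against them. The block added ITGA7, ITGAM and ITGB7 for shNR4A2 without LPS (adjusted p from 8.16e-05 to 0.0227), and ITGA5, ITGA7, ITGAM, ITGB1, ITGB7, ITGB8, ICAM1 and ICAM5 with LPS (7.64e-11 to 0.0382), all higher. For shNR4A3 it added ITGA7, ITGAE, ITGB1, PECAM1 and SELPLG, which were higher, and ITGAV and ICAM3, which were lower, without LPS (0.0125 to 0.0425), and ITGA5, ITGA6, ITGAX and PECAM1, higher, and ITGA9 and ICAM3, lower, with LPS (0.000831 to 0.0296).

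Leaving out 1 library moved 3 of these 4 counts by over 1.5 times, and the count for shNR4A3 without LPS was 5 or 6. The count for shNR4A2 without LPS was 5 without shNT control replicate 3. That for shNR4A2 with LPS was 5 without shNR4A2 LPS replicate 1, 3 without shNT LPS replicate 2 and 5 without shNT LPS replicate 3. For shNR4A3 with LPS it was 6 without shNR4A3 LPS replicate 3, 6 without shNT LPS replicate 2 and 5 without shNT LPS replicate 3. The share of all genes called in these fits is not given, so these counts are not set against all genes.

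The beta2 chain ITGB2 and its partner ITGAL were higher in both knockdown lines. ITGB2 was at 449, 431 and 389 TPM in shNT control cells, at 672, 704 and 575 TPM in shNR4A2 control and at 697, 684 and 614 TPM in shNR4A3 control cells. Under LPS its level was at 430.4, 418 and 379 TPM in shNT, 676, 649 and 594 TPM in shNR4A2 and 690.0, 643 and 649 TPM in shNR4A3 cells. Every library of either knockdown line was above every shNT library, whatever the treatment. The log2 differences from shNT were 0.62 ± 0.12 (SE, adjusted p = 0.00853) and 0.70 ± 0.10 (adjusted p = 0.00372) for shNR4A2 without and with LPS, and 0.70 ± 0.10 (adjusted p = 0.00068) and 0.75 ± 0.09 (adjusted p = 0.00119) for shNR4A3.

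ITGAL, which forms LFA-1 with ITGB2, was at 34.9, 35.7 and 35.1 TPM in shNT control cells, at 60.6, 76.5 and 70.5 TPM in shNR4A2 control and at 56.0, 87.4 and 74.2 TPM in shNR4A3 control cells. With LPS it was at 24.9, 29.6 and 19.6 TPM in shNT, 37.4, 65.2 and 49.1 TPM in shNR4A2 and 37.1, 70.7 and 56.7 TPM in shNR4A3 cells. The knockdown libraries were above all shNT libraries at each treatment, with replicate 2 the highest of each knockdown group. The log2 differences from shNT were 0.98 ± 0.11 (SE, adjusted p = 0.000476) and 1.09 ± 0.17 (adjusted p = 0.00745) for shNR4A2 and 1.08 ± 0.12 (adjusted p = 0.000132) and 1.20 ± 0.19 (adjusted p = 0.00625) for shNR4A3, without and with LPS. The calls of ITGB2 and ITGAL in these 4 comparisons held with each library left out in turn.

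ITGAM and ITGAX are the alpha chains of the complement receptors. ITGAM was at 38.4, 24.9 and 24.8 TPM in shNT control cells, 53.0, 40.3 and 39.2 TPM in shNR4A2 control and 60.2, 42.6 and 45.6 TPM in shNR4A3 control cells. Under LPS its level was at 31.3, 21.2 and 18.2 TPM in shNT, 33.9, 30.8 and 28.6 TPM in shNR4A2 and 41.9, 39.2 and 38.6 TPM in shNR4A3 cells. It was called higher in shNR4A3 (0.81 ± 0.18, adjusted p = 0.0146 without LPS, a call lost with DESeq2 at 0.0662, and 0.82 ± 0.17, adjusted p = 0.0225 with LPS), whereas in shNR4A2 its differences of 0.59 and 0.46 had adjusted p of 0.0784 and 0.174, and of 8.16e-05 and 5.73e-06 with the replicate block. Replicate 1 was the highest library of each group, and the direct difference between the knockdown lines was -0.21 ± 0.16 without LPS (SE, adjusted p = 0.622) and -0.36 ± 0.11 with LPS (adjusted p = 0.135; 0.000928 with the block). The shNR4A3 calls of ITGAM were lost without control replicate 1 of shNR4A3 or control replicate 2 or 3 of shNT (adjusted p up to 0.0771), and, with LPS, without shNR4A3 replicate 1 or 3 or shNT replicate 2 or 3 (adjusted p up to 0.0959).

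ITGAX was at 30.6, 28.2 and 26.1 TPM in shNT control cells and at 40.6, 37.6 and 41.1 TPM in shNR4A2 control cells, while shNR4A3 control cells had 29.7, 29.4 and 25.1 TPM. The shNR4A2 libraries were above all others without LPS, and those of shNR4A3 overlapped those of shNT. With LPS it was at 21.1, 21.5 and 15.7 TPM in shNT, 25.0, 27.6 and 26.2 TPM in shNR4A2 and 23.5, 26.6 and 24.3 TPM in shNR4A3 cells. The shNR4A2 differences were 0.49 ± 0.11 (SE, adjusted p = 0.018) and 0.49 ± 0.11 (adjusted p = 0.0341), and those of shNR4A3 were 0.03 (adjusted p = 0.902) and 0.41 (adjusted p = 0.0548; 0.00222 with the block). Both shNR4A2 calls of ITGAX were lost in fits with a library left out, in which the difference was 0.40 to 0.51 without LPS and 0.38 to 0.56 with LPS. Without LPS the call was lost without shNR4A2 replicate 1 or shNT replicate 2 or 3 (adjusted p up to 0.101), and with LPS in 5 of 6 fits, all but that without shNR4A2 LPS replicate 2 (adjusted p up to 0.1003).

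ITGA4, the alpha chain of VLA-4, was lower in the shNR4A2 line and higher in the shNR4A3 line. It was at 38.6, 40.4 and 41.6 TPM in shNT control cells, at 26.9, 23.8 and 26.6 TPM in shNR4A2 control and at 44.1, 65.6 and 55.8 TPM in shNR4A3 control cells. Under LPS its level was at 28.8, 38.6 and 26.4 TPM in shNT, 14.3, 22.3 and 13.6 TPM in shNR4A2 and 41.7, 61.5 and 41.4 TPM in shNR4A3 cells. At each treatment the 3 lines had no library in common range, with shNR4A2 lowest and shNR4A3 highest. The differences from shNT were -0.64 ± 0.10 (SE, adjusted p = 0.00263) and -0.85 ± 0.17 (adjusted p = 0.0195) for shNR4A2 and 0.50 ± 0.11 (adjusted p = 0.0153; 0.0745 with all 18 libraries in 1 fit) and 0.68 ± 0.15 (adjusted p = 0.0294) for shNR4A3.

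Set directly against each other, the shNR4A2 line had less ITGA4 than the shNR4A3 line by -1.14 ± 0.13 without LPS (SE, adjusted p = 0.000286) and by -1.53 ± 0.18 with LPS (adjusted p = 0.00567), and both of these calls held with each library left out. The shNR4A2 call of ITGA4 against shNT with LPS was lost without shNR4A2 LPS replicate 1 or shNT LPS replicate 1 or 2 (adjusted p up to 0.0749). That of shNR4A3 was lost without shNR4A3 control replicate 2 or 3 or shNT control replicate 1 (adjusted p up to 0.0642), and, with LPS, without shNT LPS replicate 1 or 3 (adjusted p up to 0.0998).

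The beta partners of ITGA4 had their own patterns. ITGB7, which forms the gut-homing receptor with ITGA4, was at 9.33, 10.97 and 8.998 TPM in shNT control cells, at 12.02, 13.5 and 12.1 TPM in shNR4A2 control and at 16.5, 18.02 and 16.6 TPM in shNR4A3 control cells. With LPS the values were 6.61, 6.27 and 6.46 TPM in shNT, 6.45, 9.51 and 8.05 TPM in shNR4A2 and 11.4, 13.8 and 11.6 TPM in shNR4A3 cells. The shNR4A3 libraries were above all libraries of the other two lines at each treatment, with differences from shNT of 0.85 ± 0.13 (SE, adjusted p = 0.00146) and 0.98 ± 0.12 (adjusted p = 0.00156) that were called with each library left out. For shNR4A2 the adjusted p were 0.175 and 0.184, and 0.0175 and 0.0382 with the block. ZNF740 overlaps 42.1% of the exonic bases of ITGB7 on the opposite strand. The strand setting of the counting is not given in the sources used here, so reads of these genes cannot be told apart with certainty. ZNF740 had 3692, 3984 and 3287 counts over the control libraries of shNT, shNR4A2 and shNR4A3. Over the LPS libraries it had 1771, 1444 and 1256. The part of the overlap in the ITGB7 values was not tested. ITGB1 was called higher in shNR4A3 with LPS (0.34 ± 0.07, adjusted p = 0.0247), a call lost in 5 of 6 fits with a library left out, all but that without shNR4A3 LPS replicate 2 (adjusted p up to 0.1001).

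ITGA6, the laminin receptor chain, was higher in the shNR4A2 line. It was at 7.02, 4.11 and 4.66 TPM in shNT control cells, at 21.3, 11.5 and 10.7 TPM in shNR4A2 control and at 6.50, 5.75 and 5.70 TPM in shNR4A3 control cells. With LPS it was at 7.36, 5.52 and 3.87 TPM in shNT, 22.2, 15.0 and 11.1 TPM in shNR4A2 and 11.1, 7.23 and 7.20 TPM in shNR4A3 cells. The shNR4A2 libraries were above all shNT libraries at each treatment, and replicate 1 was the highest library of each group. The differences of shNR4A2 from shNT were 1.46 ± 0.27 (SE, adjusted p = 0.00792) and 1.59 ± 0.29 (adjusted p = 0.0122), the second lost without shNT LPS replicate 2 (adjusted p = 0.0535). Directly against shNR4A3 the difference was 1.23 ± 0.23 without LPS (adjusted p = 0.0116) and 0.91 with LPS (adjusted p = 0.142; 2.96e-05 with the block).

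ITGB5, the partner of ITGAV in the vitronectin receptor, was lower in the shNR4A3 line. Without LPS it was at 37.7, 34.9 and 31.3 TPM in shNT, 33.2, 37.6 and 34.5 TPM in shNR4A2 and 15.2, 22.6 and 18.9 TPM in shNR4A3 cells. Under LPS its level was at 32.2, 31.5 and 27.5 TPM in shNT, 29.1, 34.9 and 29.1 TPM in shNR4A2 and 13.3, 18.9 and 15.7 TPM in shNR4A3 cells. All shNR4A3 libraries were below all libraries of the other lines, which overlapped each other. The differences of shNR4A3 from shNT were -0.84 ± 0.13 (SE, adjusted p = 0.00134) and -0.87 ± 0.11 (adjusted p = 0.0019). Against shNR4A3 the shNR4A2 line was higher by 0.85 ± 0.13 (adjusted p = 0.00335) and 0.96 ± 0.11 (adjusted p = 0.00501), and all 4 calls held with each library left out. The ratio of ITGB5 to ITGAV TPM was 1.14 ± 0.185 in shNT control cells and 0.776 ± 0.140 (SD, n = 3) in shNR4A3 control cells, and 0.462 ± 0.174 in shNR4A3 cells with LPS.

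**Figure D4:**
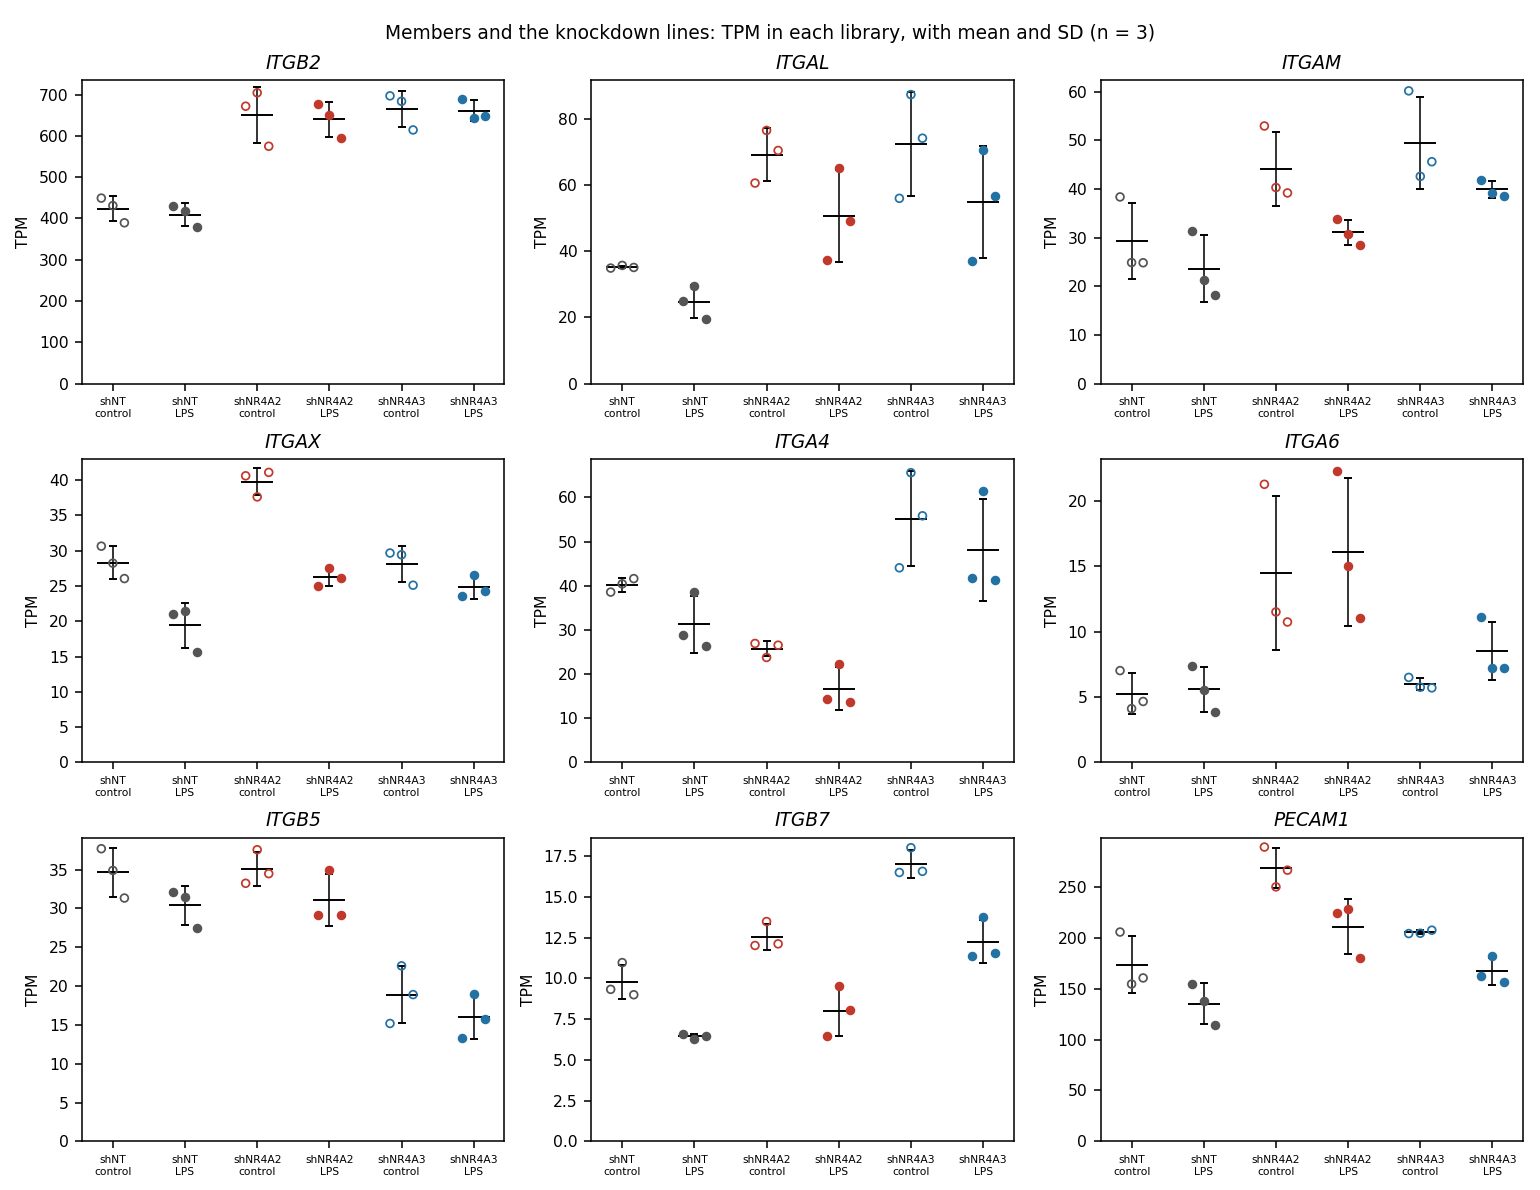
TPM (linear axis from 0) of 9 members by group, with 1 point for each library and black bars for the mean and SD (n = 3). ITGB2 and ITGAL lie higher in both knockdown lines than in shNT at the same treatment, ITGA4 is lowest in shNR4A2 and highest in shNR4A3, and ITGB5 is lowest in shNR4A3.

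PECAM1, the adhesion molecule of endothelial junctions that leukocytes also carry, was at 206, 155 and 161 TPM in shNT control cells, at 289, 250.1 and 267 TPM in shNR4A2 control and at 204, 205 and 208 TPM in shNR4A3 control cells. With LPS it was at 155, 138 and 114 TPM in shNT, 225, 228 and 179.9 TPM in shNR4A2 and 163, 182 and 157 TPM in shNR4A3 cells. The shNR4A2 libraries were the highest without LPS and did not overlap those of shNT at either treatment. With LPS the shNR4A3 libraries were also all above those of shNT. Its differences from shNT were 0.63 ± 0.12 (SE, adjusted p = 0.00936) and 0.70 ± 0.13 (adjusted p = 0.0127), the second lost without shNT LPS replicate 2 or 3 (adjusted p = 0.062 and 0.0546). For shNR4A3 they were 0.29 (adjusted p = 0.126; 0.0258 with the block) and 0.36 (adjusted p = 0.0703; 0.00148 with the block).

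ICAM3, the ICAM of resting leukocytes, was at 3.69, 4.02 and 3.35 TPM in shNT control cells, at 1.62, 2.33 and 1.79 TPM in shNR4A2 control and at 1.69, 2.15 and 2.23 TPM in shNR4A3 control cells. Under LPS its level was at 4.08, 4.28 and 3.49 TPM in shNT, 1.78, 1.82 and 1.80 TPM in shNR4A2 and 2.51, 1.66 and 2.44 TPM in shNR4A3 cells. All libraries of both knockdown lines were below all shNT libraries. It was called lower in shNR4A2 (-0.95 ± 0.24, adjusted p = 0.0385, and with LPS -1.07 ± 0.21, adjusted p = 0.018), while shNR4A3 had -0.82 (adjusted p = 0.0551; 0.0368 with the block) and -0.76 (adjusted p = 0.088; 0.0296 with the block). The call without LPS was lost in 5 of 6 fits with a library left out, all but that without shNR4A2 control replicate 2 (adjusted p up to 0.132), and that with LPS without shNR4A2 replicate 1 or any of the 3 shNT replicates (adjusted p up to 0.0818). AC114271.1 overlaps 71.2% of the exonic bases of ICAM3 on the opposite strand, with 369 counts in all libraries together. As the strand setting is not given, reads over these bases may have been lost, and the levels and calls of ICAM3 may then rest on the rest of its bases.

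CD44 was higher in the shNR4A2 line at both treatments and in the shNR4A3 line with LPS. All shNR4A2 control libraries were above all other control libraries, and the LPS libraries of both knockdown lines were above those of shNT. The differences from shNT were 0.59 ± 0.11 (SE, adjusted p = 0.00977) and 0.80 ± 0.17 (adjusted p = 0.0234) for shNR4A2, and -0.06 (adjusted p = 0.803) and 0.86 ± 0.18 (adjusted p = 0.0239) for shNR4A3. The direct difference between the knockdown lines was 0.65 ± 0.11 without LPS (adjusted p = 0.0055), called with each library left out but not with all 18 libraries in 1 fit (adjusted p = 0.0528), and -0.06 with LPS. The shNR4A2 call without LPS was lost without shNT control replicate 3 (adjusted p = 0.0548) and with all 18 libraries in 1 fit (adjusted p = 0.056). Those with LPS were lost in 5 of 6 fits each, all but that without replicate 2 of the knockdown line (adjusted p up to 0.099 and 0.102).

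ICAM1 and ICAM5 differed between lines with LPS and were called in shNR4A3 against shNT, by 0.95 ± 0.18 (SE, adjusted p = 0.0138) and 1.47 ± 0.28 (adjusted p = 0.0138). Both calls were lost without shNR4A3 LPS replicate 3, shNT LPS replicate 2 or shNT LPS replicate 3 (adjusted p up to 0.063 for ICAM1 and 0.0689 for ICAM5). In shNR4A2 the ICAM1 difference with LPS was 0.68 (adjusted p = 0.0512; 7.64e-11 with the block). Between the knockdown lines ICAM1 differed by -0.27 ± 0.21 (adjusted p = 0.567; 0.00148 with the block) and ICAM5 by -0.31 ± 0.41 (adjusted p = 0.751). VCAM1 was not called between lines.

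The remaining calls between lines were of less abundant chains. ITGA7, a laminin receptor chain known from muscle, was at 5.39, 5.68 and 4.62 TPM in shNT and 8.41, 9.86 and 8.20 TPM in shNR4A3 cells with LPS, without overlap (0.81 ± 0.12, adjusted p = 0.00408). ITGA9, an alpha chain that binds tenascin, was at 2.67, 1.91 and 1.84 TPM in shNT control and 0.530, 1.48 and 0.818 TPM in shNR4A3 control cells, also without overlap (-1.17 ± 0.30, adjusted p = 0.0309). That call was lost without shNR4A3 control replicate 1 or 3 or shNT control replicate 1 or 2 (adjusted p up to 0.107). ITGA1, a collagen receptor chain, had 24, 29 and 22 counts in shNR4A2 and 7, 8 and 6 in shNT cells with LPS. It passed the filter only in comparisons that hold the shNR4A2 LPS libraries, where it was highest, so its call (1.98 ± 0.33, adjusted p = 0.0093) is given as a description. ITGB8 had 173 counts in shNR4A3 and 50 in shNT cells with LPS over 3 libraries each. Since it did not pass the filter in the shNT line alone, this call too (1.96 ± 0.45, adjusted p = 0.0326) is given as a description, and it was lost in 5 of 6 fits, all but that without shNR4A3 LPS replicate 2 (adjusted p up to 0.114).

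In the direct comparison of the knockdown lines, 5 of 26 members were called without LPS (4 higher, 1 lower in shNR4A2), where 3.08% of all genes were called (1.94% higher, 1.14% lower), and 2 of 29 with LPS (1 higher, 1 lower), where 2.33% were (1.27% higher, 1.06% lower). Without LPS these were ITGA6, ITGAX, ITGB5 and CD44, higher in shNR4A2, and ITGA4, and with LPS they were ITGB5 and ITGA4. The ITGAX difference of 0.46 ± 0.11 (SE, adjusted p = 0.0388) lost its call in 5 of 6 fits with a library left out, all but that without shNR4A2 control replicate 2 (adjusted p up to 0.229). With the block 10 members were called at each treatment, with ITGA2, ITGA9, ITGB7, PECAM1 and SELPLG added without LPS (adjusted p from 0.00402 to 0.0318) and ITGA1, ITGA6, ITGA7, ITGA9, ITGAM, ITGB7, ICAM1 and PECAM1 with LPS (2.96e-05 to 0.0401). The shares of 3.08% and 2.33% are from the fit without the block and are not set against these counts. ITGB2 (-0.08 ± 0.11 and -0.05 ± 0.10) and ITGAL (-0.11 ± 0.14 and -0.12 ± 0.21) were not called between the knockdown lines.

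The interaction of line and LPS, which asks whether the response to LPS differs from that of shNT, called 0 of 32 members for shNR4A2 and 0 of 29 for shNR4A3 with edgeR, and 0% of all genes in both. At an unadjusted p under 0.05 there was 1 member for shNR4A2 (ITGB3) and 4 for shNR4A3 (CD44, ITGAV, ICAM1, ITGAX), among 365 and 824 of all genes, and DESeq2 called 0 members in both. The largest of the 4 in test value was CD44, with an LPS response larger by 0.92 ± 0.24 in shNR4A3 than in shNT (SE, unadjusted p = 0.00135, adjusted p = 0.697). CD44 was called without shNR4A3 LPS replicate 2 (1.13, adjusted p = 0.00949). With no filter on low counts CD44 (0.94 ± 0.14, adjusted p = 4.61e-08) and ICAM1 (0.73 ± 0.16, adjusted p = 0.00389) were called. Their estimates were close to those of the main fit (0.92 ± 0.24 and 0.70 ± 0.29), so mainly the SE had changed. The share of all genes called in that fit is not given, and no interaction is read from these 2 calls.

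Genes that act with the members were taken from 7 lists, with a row for every gene, and 0 of them were called in an interaction of line and LPS. With the block, which was not taken as a pairing there, 1 gene of the selectin ligand list was called in the interaction for shNR4A3. Their counts stand beside shares of called genes among all tested of 24.9%, 19.3% and 28.1% with LPS in shNT, shNR4A2 and shNR4A3 cells, 6.45% and 6.96% for shNR4A2 against shNT without and with LPS, and 7.23% and 6.45% for shNR4A3. These shares are from the fit without the block, so nothing is read from the block counts of any list against them. All genes of the activation, tetraspanin, selectin ligand and sheddase lists passed the filter, as did 10 to 12 of the 14 hyaluronan genes and 13 to 15 of the 19 other receptors. Of the 30 genes of integrin activation and adaptors, 3, 1 and 2 were called with LPS in shNT, shNR4A2 and shNR4A3 cells, 1 and 3 between shNR4A2 and shNT without and with LPS, and 3 and 3 between shNR4A3 and shNT. With the block the counts between lines were 13 and 16 for shNR4A2 and 7 and 8 for shNR4A3, and with LPS 5, 6 and 9 in the shNT, shNR4A2 and shNR4A3 lines. The focal adhesion kinase PTK2 was at 7.15 TPM in shNR4A2 and 1.77 TPM in shNT control cells (2.02, adjusted p = 9.83e-06), and with LPS the difference was 2.12. FYB1, an adaptor that links immune receptors to integrin activation, was higher in shNR4A3 than in shNT by 0.58 and 0.63, and lower in shNR4A2 than in shNR4A3 by -1.08 and -1.07. With a library left out, the FYB1 calls against shNT were lost in 4 and 3 of 6 fits (adjusted p up to 0.0846 and 0.0672), and the direct call without LPS was lost without shNR4A3 control replicate 1 (adjusted p = 0.0518). Also against shNT, BCAR1 was lower in shNR4A3 with LPS (-0.72, adjusted p = 0.00893). ITGB1BP1 was lower in shNR4A3 without and with LPS (-0.31 and -0.38) and APBB1IP higher without LPS (0.50). These 3 calls were lost in 6, 4 and 4 of 6 fits. Of the 9 tetraspanins, 1 was called with LPS in each line (1, 2 and 3 with the block), and CD53 was higher than in shNT by 1.09 and 1.16 in shNR4A2 and by 1.14 and 1.22 in shNR4A3. CD9 was lower in shNR4A3 than in shNT by -1.09 and -1.08, the second lost in 4 of 6 fits with a library left out (adjusted p up to 0.135). The tetraspanin counts for the lines against shNT were 1 and 2 for shNR4A2 and 2 and 3 for shNR4A3, and 2, 3, 3 and 3 with the block.

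Among the 8 genes that build selectin ligands, 5, 4 and 5 were called with LPS in shNT, shNR4A2 and shNR4A3 cells, in both directions, and 6, 5 and 7 with the block. FUT7, the fucosyltransferase that completes the selectin-binding glycan on SELPLG, fell with LPS from 38.6 to 13.1 TPM in shNT cells, and its log2 fold changes were -1.35, -1.30 and -1.36 in the 3 lines. GCNT1, which starts the branched O-glycan, changed by -0.69, -1.63 and -1.42, and the galactosyltransferase B4GALT1 rose by 1.14, 1.59 and 1.55. Between lines, 1 and 1 of these genes were called for shNR4A2 (TPST2, 0.56 and 0.55) and 2 and 1 for shNR4A3, with the sialyltransferase ST3GAL6 higher by 0.86 and 0.69. With LPS, the TPST2 call was lost in 3 of 6 fits with a library left out (adjusted p up to 0.0925) and that of ST3GAL6 in 5 of 6 (adjusted p up to 0.150). With the block the counts between lines were 4 and 5 for shNR4A2 and 3 and 3 for shNR4A3.

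Of the 26 matrix and plasma ligands of integrins, 18 passed the filter, and 5, 7 and 6 were called with LPS, all higher (5, 7 and 7 with the block). Thrombospondin 1 (THBS1) went from 6.37 to 47.6 TPM in shNT cells, with log2 fold changes of 3.11, 4.21 and 4.28 in the 3 lines, and osteopontin (SPP1) rose by 1.14 in shNR4A2 and 1.04 in shNR4A3 cells. Between lines 1 and 3 were called for shNR4A2, with MFGE8, a ligand of ITGAV integrins, higher by 0.99 and 1.28, and 2 and 1 for shNR4A3. With the block 9, 10, 5 and 7 were called, counts with no share of all genes from that fit beside them. In the list of 14 genes for hyaluronan, other CD44 ligands and cytoskeletal linkers, 4, 3 and 5 were called with LPS. The hyaluronan synthase HAS3 rose by 3.03, 2.79 and 2.89 in the 3 lines. HAS2, another synthase, went from 3 to 54, 15 to 116 and 22 to 132 counts over the libraries of shNT, shNR4A2 and shNR4A3 cells, and it passed the filter only in comparisons that hold LPS libraries. With the block 4, 4 and 5 of this list were called with LPS. Between lines 2 and 1 were called for shNR4A2 and 2 and 2 for shNR4A3, with the proteoglycan VCAN higher by 1.75 and 1.80 in shNR4A2 and by 1.95 and 2.39 in shNR4A3. SRGN, of the same list, was called lower by -0.63 in shNR4A2 without LPS and by -0.55 and -0.36 in shNR4A3. The last of these calls was lost in 4 of 6 fits with a library left out (adjusted p up to 0.153). With the block the hyaluronan counts between lines were 4 and 4 for shNR4A2 and 3 and 5 for shNR4A3.

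Of the 19 other leukocyte adhesion receptors, 2, 2 and 4 were called with LPS, and CD58, the ligand of CD2, rose by 0.80, 0.80 and 0.91. CD34 had 12 counts over the control and 155 over the LPS libraries of shNR4A2 cells, 2 and 122 in shNR4A3 cells, and 5 and 37 in shNT cells. It passed the filter only in comparisons that hold LPS libraries of a knockdown line, where it was highest, so its calls there are no more than a description. With the block, 3, 5 and 6 of these receptors were called with LPS. Between lines, without and with LPS, 1 and 2 of this list were called for shNR4A2 against shNT and 0 and 2 for shNR4A3, and 3, 6, 1 and 4 with the block. Of the 6 sheddases that cut adhesion molecules from the surface, 1, 2 and 1 were called with LPS, with or without the block, and ADAM17 rose by 0.58, 0.92 and 0.94. Between lines 0 and 1 of the sheddases were called for shNR4A2 (MMP9, -1.19 with LPS) and 1 and 1 for shNR4A3 (ADAM15, 0.42 and 0.34), and 3, 2, 2 and 2 with the block. The MMP9 call was lost in 5 of 6 fits with a library left out (adjusted p up to 0.1205), and those of ADAM15 in 3 and 5 of 6 (adjusted p up to 0.0829 and 0.152).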

How the data were processed

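RNA was isolated from the 18 THP-1 samples, selected for poly(A), and sequenced paired-end. The submitters' processing notes name Trimmomatic 0.36, STAR 2.5.2b, featureCounts, Subread 1.5.2 and the build GRCh38. The deposited values are the authors' raw counts per gene, not normalized, with no sample pooled. The strand setting of the counting and the annotation release are not given in the sources used here. The study describes 3 independent experiments, and the labels number the libraries 1 to 3.

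Symbols came from GENCODE 29, in which 33 of 35 members had the same position as in the files. Each of the 9 pairwise comparisons was fitted on its own 6 libraries and each interaction on 12, with edgeR 4.0.16 in R 4.3.3 (filterByExpr, TMM scaling, glmQLFit and glmQLFTest). Adjusted p-values were over all genes that passed the filter. TPM were computed from the counts and the gene lengths in the files. The depth of 16171161 to 23929138 counts per library limits low members, and floors of 3 counts cover counting error only. Alternative fits used DESeq2 1.42.0, edgeR with the size factors of DESeq2, every gene whatever its counts, a block for the replicate number, a single model of all 18 libraries, and each library left out in turn. Summed levels were also computed as TMM-scaled RPKM.

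Deviations from the group means of same-numbered libraries correlated above 0.1 for every number in 8 of the 9 pairwise comparisons, so there the numbers were taken to pair the libraries, from the data. LPS in shNT (0.256, 0.0598 and 0.133) and the interactions were the exceptions. The 35 members and the 7 further lists were chosen with earlier results of these data known. Most members that reached 1 TPM in a group are given by their values, and of the others VCAM1, ITGB8 and ITGA1 are given by library. At most 4 called genes without overlap of the groups were named for each list and comparison.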

Additional observations from a re-analysis of the deposited data

Results flagged for a closer look

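The knockdown lines differed from each other in the direct test for 5 members without LPS. The log2 differences of shNR4A2 from shNR4A3 were -1.14 for ITGA4, 1.23 for ITGA6, 0.46 for ITGAX, 0.85 for ITGB5 and 0.65 for CD44. With LPS, 2 members differed between these lines, ITGA4 by -1.53 and ITGB5 by 0.96. The test was edgeR's quasi-likelihood test on the 6 libraries of both lines, and each difference rests on 1 line for each hairpin. Groups of 3 libraries are too small for a test of single outlying libraries.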

How the results depend on the processing

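No called value of a member changed sign under any alternative run. Of 69 called values, 67 remained called with DESeq2, 68 with DESeq2's size factors in edgeR, 66 with no filter on low counts, 63 with all 18 libraries in 1 fit and 69 with the replicate block. The calls lost were ITGAM (shNR4A3 against shNT without LPS) and ITGAE (LPS in shNR4A3) with DESeq2, ITGAE with its size factors and with no filter, ITGAV and ITGB1 (LPS in shNT) with no filter and in 1 fit, and ITGA6 (LPS in shNR4A3), ITGA4 (shNR4A3 against shNT without LPS) and CD44 (shNR4A2 without LPS, against shNT and shNR4A3) in 1 fit. Of 414 fits of these values with 1 library left out, 314 remained called, and 41 values were called under every alternative.

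The counts of called members that moved by over 1.5 times were as follows. With LPS in shNR4A2 cells the 7 became 12 with all 18 libraries in 1 fit and 13 with the block. For shNR4A2 against shNT with LPS the 9 became 14 with no filter and 17 with the block, and for shNR4A3 against shNT without LPS the 7 became 14 with the block. Between the knockdown lines the 5 without LPS became 10 with the block, and the 2 with LPS became 4 with DESeq2, 7 with no filter and 10 with the block. The interaction for shNR4A3 had 2 with no filter. In LPS against control in shNT cells, where the numbers were not taken to pair the libraries, the block gave 12 in place of 8. The block lost none of the 69 calls. No share of all genes called in any of these alternative fits, or with a library left out, is given beside the counts. Nothing is therefore read from them about the members against all genes.

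With 1 library left out, counts ranged from 5 to 9 for shNR4A2 against shNT without LPS and 3 to 12 with LPS, from 5 to 13 for shNR4A3 against shNT with LPS, and from 0 to 1 for the shNR4A3 interaction. On the scale of TMM-scaled RPKM, the summed level of the members was 327.4, 435.5 and 439.5 in shNT, shNR4A2 and shNR4A3 control cells and 405.7, 601.3 and 635.8 with LPS, a unit that cannot be set against TPM. With 3 libraries a group, differences of members near the filter, such as ITGB8, ITGA1 and VCAM1, rest on few reads.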
